A study of Mus musculus with 8 samples.

Results

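The regions described here are stretches of the mouse autosomes at which methylated DNA was called in one adult intestinal cell type and not in the other. They come from the peak lists of 2 enterocyte and 2 intestinal stem cell (ISC) libraries, each held to the same length, its 84990 highest-scoring autosomal peaks, and merged where they overlapped by 1 bp or more. Such a region is called enterocyte-only when both enterocyte lists held a peak in it and neither ISC list did, and ISC-only in the opposite case. Of the 150923 regions in these lists, 11726 met the rule, 6511 as enterocyte-only and 5215 as ISC-only. The full lists of all 8 libraries of the study merged into 471333 autosomal regions.

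Both adult groups were males at postnatal day 60, of a mixed C57BL/6 CD1 strain, and all carried the Lgr5EGFP-Cre-ERT allele, in which the Lgr5 promoter drives EGFP and an inducible Cre. ISC were sorted for high Lgr5-EGFP signal. Enterocytes were sorted as EpCAM+CD31-CD45-DAPI- cells, a gate that keeps living epithelial cells and leaves out endothelial cells and leukocytes but names no marker of absorptive cells and, as the labels give it, no exclusion of EGFP. The Lgr5 reporter allele is known to be expressed in a mosaic of crypts. The study's other groups were EpCAM+ epithelium of the small intestine at E12.5 and E14.5, of the same strain and sorted with the same 3 exclusions, with 2 biological replicates in each of the 4 groups. The files hold no expression values and their positions were not tied to genes here, so neither label was checked against marker genes.

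Methylation of cytosines in CpG pairs is copied to the new strand after DNA replication by the maintenance enzyme Dnmt1, so patterns tend to persist through cell division. Lgr5, a receptor for R-spondin ligands that strengthen Wnt signalling, marks the dividing stem cells at the crypt base. Their daughters move towards the villus and mature into enterocytes, the absorptive cells, among other fates. In the assay an MBD protein, which binds methylated CpG, was used to pull down DNA fragments, so a peak marks many captured fragments and gives no percentage of methylated sites.

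Depth was 43343543 and 39142426 tags in the enterocyte libraries and 32423813 and 31438314 in the ISC libraries. A tag is a mapped read. The cut to equal length kept 51.9% and 36.7% of the autosomal enterocyte peaks and 41.9% and 30.2% of the ISC peaks. The lowest score kept, on the scale of -10 times log10 of the caller's p-value, was 79.62 and 99.77 in enterocytes and 80.93 and 109.67 in ISC, and the first peak dropped had the same printed score in each list. Peaks also differed in length: the median in the equal lists was 1008 and 802 bp in enterocytes and 583 and 686 bp in ISC. The fragment size that the caller estimated was 164 and 126 bp in enterocytes and 102 and 107 bp in ISC.

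Most methylated regions did not separate the cell types. A peak in all 4 equal lists was found at 33579 regions, 22.2% of the total. Enterocyte-only regions were 4.31% of all regions and 11.6% of the 55954 called in both enterocyte libraries. ISC-only regions were 3.46% of all and 10.6% of the 49109 called in both ISC libraries. Replicates differed by more than this: 57227 regions were called in 1 enterocyte library alone or with ISC, and 69002 in 1 ISC library alone or with enterocytes. Each of the 6 pairs of libraries held between 4688 and 6511 regions of its own, the enterocyte pair the most, the pair of second replicates 5795 and the ISC pair 5215.

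**Figure D1:**
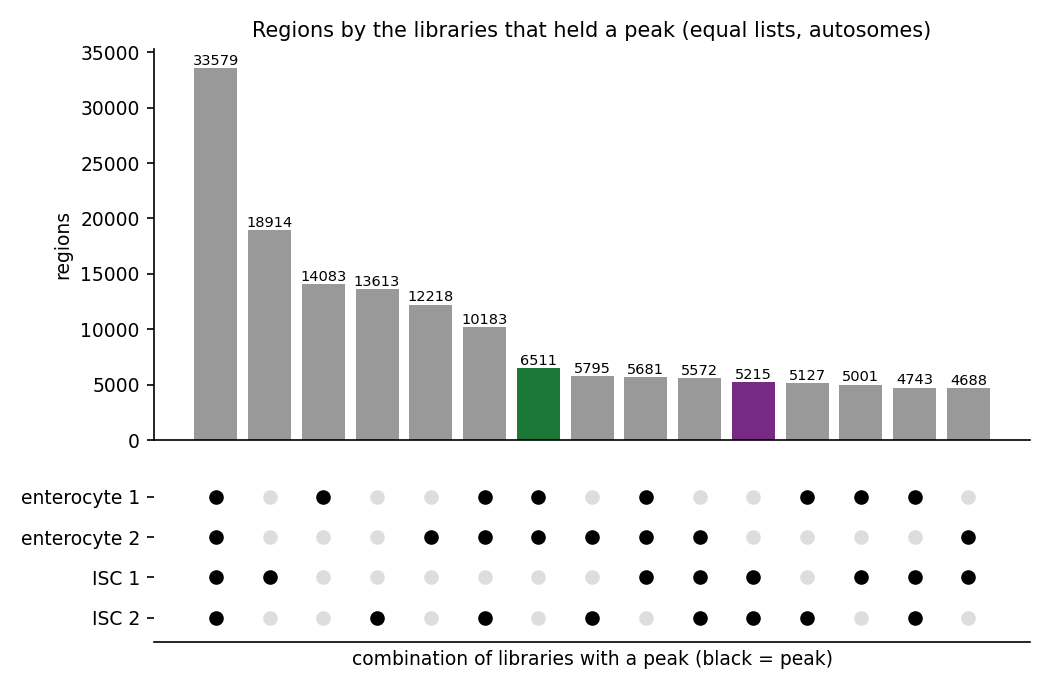
Number of autosomal regions (bars, y axis) for each combination of the 4 adult libraries that held a peak in the equal lists; black dots mark the libraries with a peak. The enterocyte-only bar (green, 6511) and the ISC-only bar (purple, 5215) are close in height to those of the other pairs of libraries, 4688 to 5795.

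Bases covered by peaks overlapped by 44.4% between the enterocyte lists and by 38.4% between the ISC lists (Jaccard index, the shared share of all bases covered by either). Enterocyte 2 and ISC 2 overlapped by 45.6%, more than either replicate pair, and enterocyte 1 and ISC 1 by 31.0%. An exact two-sided permutation test of 2 libraries against 2 cannot give a p below 0.333, so the counts of regions carry no test. Enterocyte-only regions were 55.5% of the 11726, and this share was 39.3% without ISC replicate 1, 40.9% without ISC replicate 2, 65.6% without enterocyte replicate 1 and 65.7% without enterocyte replicate 2. By the rule's construction, a group left with 1 library gives more regions of its own. The share was 65.9%, 9938 against 5139 regions, when a library counted as present only where its peaks covered 50% of a region.

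With the full lists the balance was the other way. Here 6072 of 355642 regions (1.71%) were enterocyte-only and 18388 (5.17%) ISC-only, or 4.62% of the 131541 that both enterocyte libraries held and 12.3% of the 149447 that both ISC libraries held. Enterocyte-only regions were thus 24.8% of both. This share was 54.6% without enterocyte replicate 1, which had the shortest of the 4 lists (163882 autosomal peaks, against 203067 to 281760 in the others), and 24.99% without enterocyte replicate 2. Without ISC replicate 1 it was 14.04%, and without ISC replicate 2 it was 41.7%. Where peaks had to cover 50% of a region it was 44.6%, 14573 against 18137 regions. The 2 rules chose largely different regions. Of the 6511 equal-list enterocyte-only regions, 426 (6.54%) overlapped a full-list enterocyte-only region, which is 7.02% of the 6072. Of the 5215 ISC-only regions, 484 (9.28%) did, 2.63% of the 18388.

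Most group-specific regions held a weaker peak of the other cell type below the equal-length cut. Both ISC full lists had a peak in 3410 enterocyte-only regions (52.4%), 1 of them in 2674 (41.1%) and neither in 427 (6.56%). Both enterocyte full lists had a peak in 2715 ISC-only regions (52.1%), 1 of them in 2016 (38.7%) and neither in 484 (9.28%). Enterocyte-only regions had a peak in the longer ISC 2 list in 88.2% of cases and in the shorter ISC 1 list in 57.6%. For ISC-only regions the shares were 81.9% in enterocyte 2 and 60.8% in enterocyte 1. By the highest peak of each enterocyte-only region, 49.3% in ISC 1 and 56.5% in ISC 2 ranked within 20 percentile points below the cut, against 34.4% and 28.6% of all peaks below it in these lists. In ISC-only regions 51.7% in enterocyte 1 and 56.1% in enterocyte 2 did, against 41.5% and 31.6% of all. The others lay farther below. The highest peak of a region is set here against every single peak, which can raise the first of each pair of shares by construction.

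**Figure D2:**
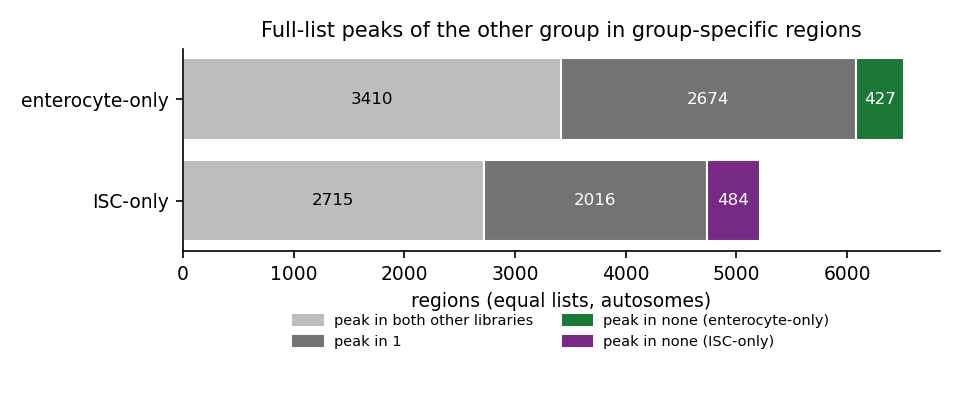
Group-specific regions of the equal lists (x axis, number of regions), divided by how many libraries of the other group had a peak there in their full list. No peak of the other group was present in 427 enterocyte-only and 484 ISC-only regions, the coloured ends of the bars.

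At the regions with full-list peaks in all 4 libraries, tags divided by the library's total (RPM) show how far apart the cell types were. Over the 3410 such enterocyte-only regions the median was 1.66 and 1.69 RPM in enterocytes and 0.894 and 1.24 RPM in ISC. Both enterocyte libraries stood above both ISC libraries at 2342 of them (68.7%), and both ISC libraries above both enterocyte libraries at 15. Over the 2715 ISC-only regions the median was 1.203 and 1.463 RPM in ISC and 1.04 and 1.02 RPM in enterocytes. Both ISC libraries were higher at 1498 (55.2%), and both enterocyte libraries at 25. The scores that chose these regions rest on the same tags, so these values are a description. Tags were summed over whole peaks, which were longer in enterocytes (above), and the part of length in these values was not tested. The same shares over all regions with full-list peaks in all 4 libraries were not computed.

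Group-specific regions were drawn from the weaker peaks. The rule itself favours these, since a region near the cut can lose the other group's peak by a small fall in rank. The part of the rule in the values below was not tested. A region's strength is given here by the lower of its percentiles, by score, in the full autosomal lists of the 2 libraries of its group. The median strength was 66.0 for enterocyte-only regions, against 76.6 for all regions called in both enterocyte libraries, and 72.0 for ISC-only regions, against 81.1. Among the 11109 enterocyte regions in the top 10% of both lists, 117 (1.05%) were enterocyte-only and 7 had no ISC peak in either full list. Among the 12385 ISC regions in the top 10%, 72 (0.581%) were ISC-only and 7 had no enterocyte peak at all. Below the 75th percentile the group-specific share was 19.6% in enterocytes (5091 of 25973) and 21.5% in ISC (3390 of 15794).

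The regions also differed in size. Enterocyte-only regions had a median length of 1016 bp (quartiles 839 and 1320) and ISC-only regions one of 602 bp (523 and 743), against 1120 and 1037 bp for all regions called in each group. A region spans all peaks merged into it. Group-specific regions hold peaks of 1 group alone, while most regions called in both ISC libraries also hold the longer enterocyte peaks. The gap between 602 and 1037 bp thus follows at least in part from the merging. Median tags were 66 and 59 in the enterocyte libraries at enterocyte-only regions, and 37 and 44 in the ISC libraries at ISC-only regions. The enterocyte peaks were longer and had the larger estimated fragment size throughout (above), and the part of this difference in the choice of regions was not tested.

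The 12 strongest enterocyte-only regions lay on 10 chromosomes, were 1130 to 2722 bp long and had a peak in both E14.5 libraries in each case. The first, on chromosome 8 from 37307958 to 37309903, held 166 and 149 tags in enterocytes and weaker peaks of 28 and 52 tags in ISC. It had 68 and 14 tags at E14.5 and 45 in E12.5 replicate 2. In enterocytes the peaks covered 1946 and 1638 bp of it, in ISC 443 and 848 bp. The second, on chromosome 11 from 6732805 to 6735077, held 194 and 193 tags in enterocytes, 37 in ISC 1 and 138 in ISC 2, so that the ISC replicates stood farther apart than ISC 2 and the enterocytes. On chromosome 2, the region from 148516065 to 148517510 held 111 and 98 enterocyte tags, 23 in ISC 1 and no peak in ISC 2. Since the enterocyte libraries were the deeper ones, raw tags overstate the gaps at enterocyte-only regions, here and below.

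The next regions followed the same form, with ISC peaks that were present but shorter and lighter. Chromosome 15, 61069586 to 61071735, held at least 141 tags in each enterocyte library against 55 and 53 in ISC, and had no E12.5 peak. Chromosome 8, 115287302 to 115288808, held 99 and 108 against 31 and 25, yet 95 and 42 tags at E12.5. Chromosome 3, 113768553 to 113769682, held 90 and 73 against 26 and 29. In these 3 regions the enterocyte libraries lay above both ISC libraries with no overlap in tags. The region on chromosome 12, 106266807 to 106269528, had 174 and 236 tags against 65 and 115, and the one on chromosome 9, 47374898 to 47376376, had 137 and 118 against 57 and 82. Among the 12, 10 had a peak in both ISC full lists and the others in 1.

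The remaining 4 of the 12 were alike. The region on chromosome 2 from 59869680 to 59871555 held 158 and 141 enterocyte tags against 28 and 83 in ISC. On chromosome 13, 54138879 to 54140711, the enterocytes had 114 and 130 tags, ISC 1 no peak and ISC 2 71 tags. On chromosome 7, 89364995 to 89366758, the values were 126 and 95 against 21 and 57. On chromosome 14, 49702241 to 49703791, they were 131 and 124 against 33 and 82. In each of them ISC 1 was the lower of the ISC libraries.

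The 3 highest-ranked ISC-only regions formed a cluster of their own near the start of chromosome 11. The region from 3049201 to 3054654 held 2675 and 2515 tags in ISC, that from 3055537 to 3059236 held 1503 and 1297, and that from 3076261 to 3080163 held 1817 and 1528. No enterocyte peak overlapped them, but one lay 218, 4268 and 2910 bp away. The largest adult peaks within 20 kb held 3031 or 4443 tags. The E14.5 libraries had 973 to 2610 tags in each of the 3 regions, and E12.5 replicate 2 had 3025 in the last one. Such counts exceed those of the other named group-specific regions by far, and the peaks were called without an input library. All 3 lost the ISC-only call when peaks were ranked by fold enrichment in place of the score, and the region from 3049201 to 3054654 also lost it where peaks had to cover 50% of a region. By fold rank, 4 of the 12 strongest ISC-only and 6 of the 12 strongest enterocyte-only regions kept their call.

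The other 9 of the 12 strongest ISC-only regions were 156 to 2790 bp long, and each held a peak in at least 1 enterocyte full list. Chromosome 15, 75436016 to 75436918, held 61 and 75 tags in ISC, none in a peak of enterocyte 1 and 42 in enterocyte 2. Chromosome 11, 113854104 to 113854962, held 68 and 65 in ISC, no peak in enterocyte 1 and 32 tags in enterocyte 2, and was called in all 4 embryonic libraries with 33 to 63 tags. Chromosome 16, 57170874 to 57171971, held 67 and 86 against 55 and 41 in enterocytes, and chromosome 10, 115283704 to 115284456, held 57 and 77 against 50 and 29. Since the enterocyte libraries were the deeper ones, raw tags understate the gap in these sentences.

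A higher rank did not always go with more tags. On chromosome 17, the ISC-only region from 69635833 to 69638622 held 238 and 293 tags in ISC, while enterocyte peaks overlapping it held 754 and 436 tags. The enterocyte peaks covered 7916 and 4086 bp and ranked at percentiles 30.5 and 60.3 of their lists, the ISC peaks 2757 and 2789 bp at percentiles 95.6 and 94.8. On chromosome 3, the region from 17858243 to 17858398, the shortest named here at 156 bp, held 23 and 26 tags in ISC at a fold enrichment of 13 and 14.45, and 31 and 29 tags in enterocytes at 7.1 and 9.1. Fold enrichment is the caller's ratio of a peak to the local background of its own library. On chromosome 5, 132633386 to 132633948, the values were 62 and 69 tags in ISC at 8.98- and 9.89-fold, and 66 and 54 tags in enterocytes at 4.74- and 5.18-fold.

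On chromosome 14 the region from 51443225 to 51444314 held 43 and 77 tags in ISC and 70 in enterocyte 2, with no peak in enterocyte 1. At 43241394 to 43242083 on chromosome 10, ISC peaks of 54 and 60 tags stood beside enterocyte peaks of 45 and 41. It was called in all 4 embryonic libraries, with 39 to 55 tags. In tags the groups overlapped in the first of these and lay 9 or more apart in the second.

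At some regions the other group had no full-list peak, a choice that itself sets the groups apart. This held for 427 enterocyte-only and 484 ISC-only regions, and for 297 and 348 when no peak was allowed within 1 kb either. Of the 427 and 484, 57 and 127 were in the top 25% of both lists of their group. The 57 enterocyte regions held 41 to 166 tags and the 127 ISC regions 15 to 2675, or up to 88 without the 3 chromosome 11 regions above. The nearest peak of the other group lay at a median of 2648 bp from the 57 and 3163 bp from the 127.

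The strongest enterocyte region of this kind was on chromosome 13, 66518615 to 66519805, with 89 and 75 tags in enterocytes and no peak in any of the 6 other libraries. It stood apart, since the nearest ISC peak was 182314 bp away and the nearest embryonic peak 43532 bp. On chromosome 2, 22504883 to 22505962, enterocytes held 85 and 81 tags and E14.5 28 and 17, with no peak at E12.5. On chromosome 15, 90975174 to 90976526, they held 100 and 88 tags, beside 88 and 78 at E12.5 and 41 and 50 at E14.5, so that ISC was the one group without a peak. The same was true on chromosome 13 at 118083253 to 118084634, with 90 and 97 tags in enterocytes, 38 and 63 at E12.5 and 64 and 25 at E14.5, and on chromosome 16 at 73529050 to 73530854, with 127 and 74, 30 and 32, and 70 and 82 tags. On chromosome 15, 40859997 to 40861153 held 84 and 64 enterocyte tags and 40 and 32 at E14.5.

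Of the ISC regions of this kind, the first 2 were chromosome 11 regions given above. The others were on chromosome 11 from 54737235 to 54738043, with 72 and 88 tags in ISC, 69 and 65 at E14.5 and 64 in E12.5 replicate 2, and on chromosome 13 from 65634862 to 65635401, with 45 and 43 tags at 13.4- and 13.7-fold enrichment. The chromosome 13 region also had peaks in both E14.5 libraries, of 44 and 37 tags, and in E12.5 replicate 2, of 31. Chromosome 14 from 55739603 to 55740285 held 39 and 56 tags in ISC, 43 in E14.5 replicate 1 and 61 in E12.5 replicate 1. On chromosome 1, 59319352 to 59319886 held 35 and 44 tags in ISC, 32 and 22 at E14.5 and 31 in E12.5 replicate 2. The enterocyte peaks nearest to these 4 lay 1717 to 6877 bp away.

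**Figure D3:**
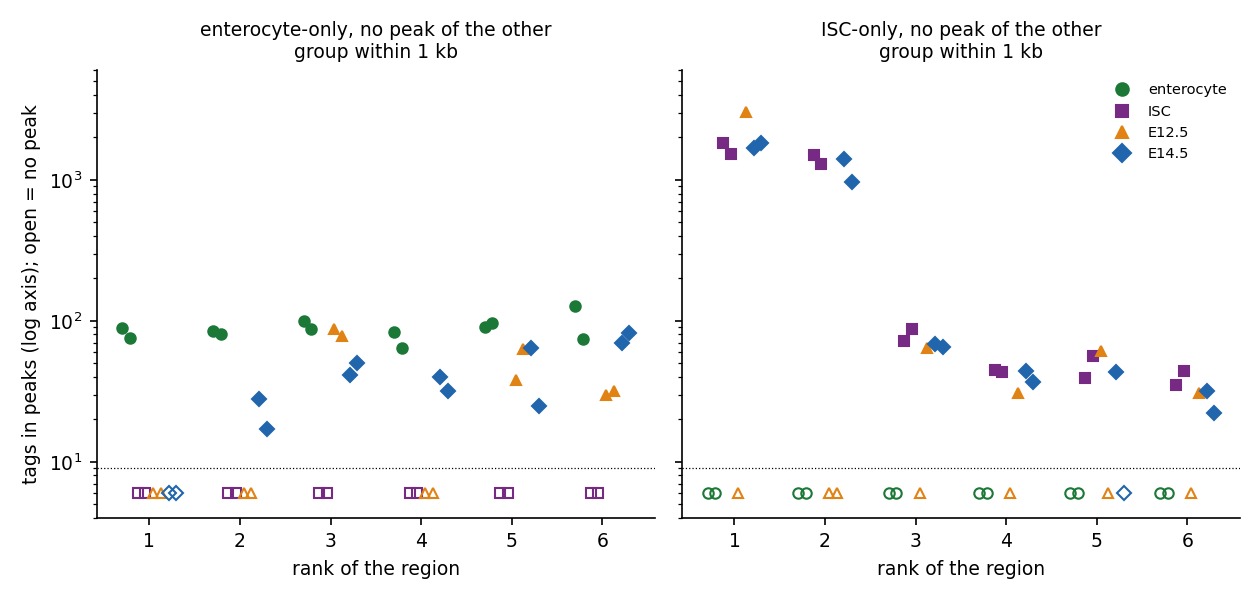
Tags in peaks (log axis) of all 8 libraries at the 6 strongest enterocyte-only (left) and ISC-only (right) regions with no full-list peak of the other group within 1 kb, by rank; each symbol is 1 library and open symbols below the dotted line mark libraries with no peak. At 5 of the 6 regions on each side both E14.5 libraries had a peak, and the first 2 ISC-only regions hold 1297 to 1817 ISC tags against 35 to 88 at the other 4.

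Some group-specific regions of the equal lists had no full-list peak in any other group of the study. The group-specific regions of the full lists were not searched in this way. A peak in both enterocyte libraries and in none of the other 6 full lists was found at 40 of the 6511 enterocyte-only regions, and a peak in both ISC libraries alone at 26 of the 5215 ISC-only regions. After the chromosome 13 region above, the strongest of the enterocyte set was on chromosome 18 from 9214195 to 9215154, with 71 and 67 tags, and its nearest ISC and embryonic peaks lay 4066 and 4164 bp from it. Next were chromosome 1, 171409488 to 171410494, with 65 and 65 tags, and chromosome 2, 136459708 to 136460546, with 58 and 51. In the ISC set the strongest were on chromosome 8, 69137433 to 69137999, with 36 and 40 tags, and on chromosome 2, 3961293 to 3961764, with 35 and 35 tags at 9.05- and 8.89-fold enrichment and an embryonic peak 475 bp away. These 5 regions were chosen after their values were seen.

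The embryonic lists, which the rule did not use, held peaks in most group-specific regions. Both E14.5 libraries had a peak in 5001 enterocyte-only regions (76.8%), against 91.4% of all regions called in enterocytes, and in 4159 ISC-only regions (79.8%), against 92.4% of all called in ISC. Both E12.5 libraries had a peak in 1031 (15.8%) and 705 (13.5%), against 35.6% and 37.1%. The E12.5 lists were short, 100117 and 84801 autosomal peaks against 314082 and 336963 at E14.5. Group-specific regions were also weaker and shorter than the regions they are set against (above). By the rule they held no equal-list peak of the other group, while most of the regions they are set against did. The part of strength, length and the rule in these gaps was not tested. Of the 427 enterocyte-only regions without a full-list ISC peak, 237 (55.5%) were called in both E14.5 libraries and 50 (11.7%) in neither. Of the 484 ISC-only regions without a full-list enterocyte peak, 332 (68.6%) were called in both and 28 (5.79%) in neither.

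**Figure D4:**
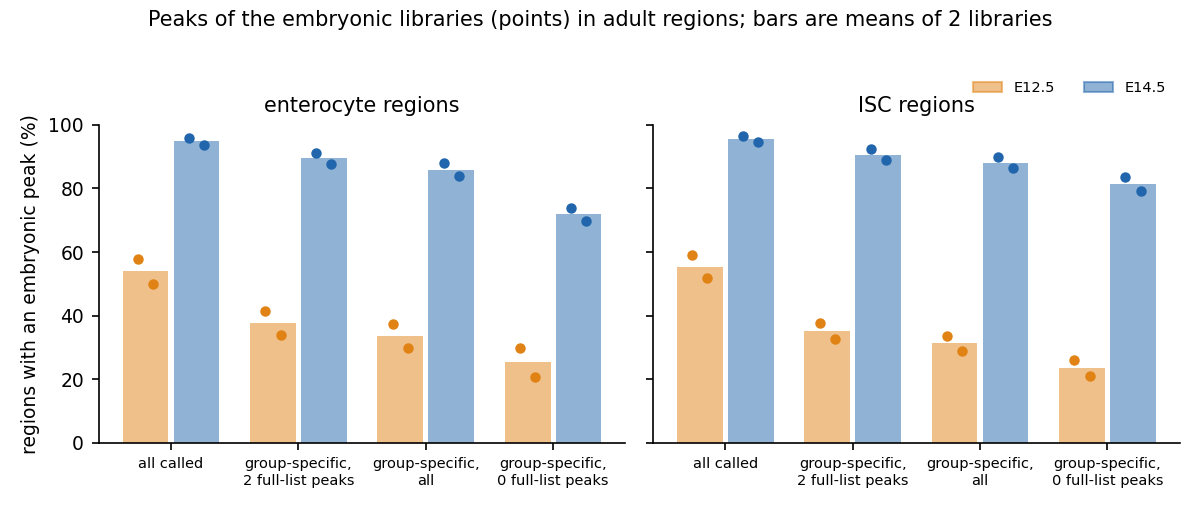
Share of adult regions (y axis, %) in which each E12.5 (orange) and E14.5 (blue) library had a peak; points are libraries and bars the mean of 2. The share at E14.5 is 93.8% to 96.5% for all regions called in a group, 83.8% to 89.9% for group-specific regions and 69.8% to 83.7% for those with no full-list peak of the other group.

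Per library, E14.5 replicates 1 and 2 had peaks in 87.9% and 83.8% of enterocyte-only regions and in 95.8% and 93.8% of all enterocyte regions. The difference was -8.96 ± 1.45 percentage points (SD, n = 2 E14.5 libraries). For ISC-only regions the values were 89.9% and 86.4%, against 96.5% and 94.7%, a difference of -7.42 ± 1.197 points. The sign was the same in every alternative run, with values from -3.15 to -13.5 points, but these runs reused the same lists. No embryonic library at all had a peak in 260 enterocyte-only (3.99%) and 148 ISC-only regions (2.84%), against 1.46% and 1.12% of all regions of each group.

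Group-specific regions were spread over all 19 autosomes. Their share of the regions called in enterocytes ran from 10.7% on chromosome 5 (420 of 3926) to 12.6% on chromosome 16 (252 of 1997). For ISC it ran from 9.16% on chromosome 17 (191 of 2085) to 11.7% on chromosome 11 (330 of 2830). Of enterocyte-only regions, which were 4.31% of all regions, 8.79% lay next to another of the same kind in the order of all regions. For ISC-only regions, 3.46% of all, the value was 7.02%. No run was longer than 3. A region has a neighbour on either side, so a random order would also give neighbour shares above these shares of all regions. The values that a random order of regions would give were not computed, for neighbours, runs or windows. No clustering is read from these shares.

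Among the runs of 3, which numbered 12 in enterocytes and 6 in ISC, 2 of each are given. On chromosome 3, enterocyte-only runs spanned 67144540 to 67160574 (16.04 kb), with 249 and 134 tags in enterocytes against 47 and 150 in ISC over all full-list peaks, and 140942030 to 141122273 (180 kb), with 227 and 272 against 61 and 162. ISC-only runs lay on chromosome 7, 81462986 to 81477060 (14.1 kb), and on chromosome 9, 44351676 to 44379378 (27.7 kb). In the chromosome 7 run ISC held 130 and 200 tags and enterocytes 44 and 243, so that enterocyte 2 stood above both ISC libraries, and in the first enterocyte-only run ISC 2 stood above enterocyte 2. In the chromosome 9 run ISC held 226 and 278 tags and enterocytes 172 and 186. By windows of 1 Mb, the most enterocyte-only regions were on chromosome 19 from 57000001 to 58000000, 13 of the 68 regions called in enterocytes there. For ISC-only regions 4 windows shared the highest count, 10 each, of which the first 3 in chromosome order were chromosome 1 from 189000001 to 190000000 (of 50 called in ISC), chromosome 8 from 129000001 to 130000000 (of 60) and chromosome 9 from 44000001 to 45000000 (of 40), which holds the chromosome 9 run. Chromosome 18 from 53000001 to 54000000 had 12 enterocyte-only regions of 56, and chromosome 6 from 38000001 to 39000000 had 11 of 41, a count that 1 more window reached.

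To ask whether the cell types differed in amount rather than in presence, tags were compared at the 94017 autosomal regions with a peak in all 4 full lists. These regions were not chosen by the rule for group-specific regions, but each needed a full-list peak in every adult library. Regions at which a group had no peak were thus left out of the comparison. The set holds 3410 of the enterocyte-only and 2715 of the ISC-only regions. Median tags were 67 and 62 in enterocytes and 41 and 53 in ISC. No region passed an adjusted p of 0.05 in edgeR's quasi-likelihood test with Benjamini-Hochberg adjustment, 0% in either direction, and the smallest adjusted p was 0.749. An unadjusted p under 0.05 was found at 4729 regions, 5.03% of those tested. DESeq2 also called 0, with a smallest adjusted p of 0.0898.

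The folds were small for most regions. The log2 fold of enterocytes over ISC lay within 0.5 of 0 at 83380 regions (88.7%), and the central 95% of regions ran from -0.55 to 0.75. The median 95% interval of a region's log2 fold, not adjusted for the number of regions, reached 0.61 to either side. After adjustment no fold passed, the 1.91 of the region with the smallest p included. The fold followed the length that peaks covered: across regions, its Pearson correlation with the log2 ratio of covered lengths was 0.874. Both values come from the same peaks and regions are not independent. Covered length had a median of 950 and 773 bp in enterocytes and 582 and 687 bp in ISC.

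**Figure D5:**
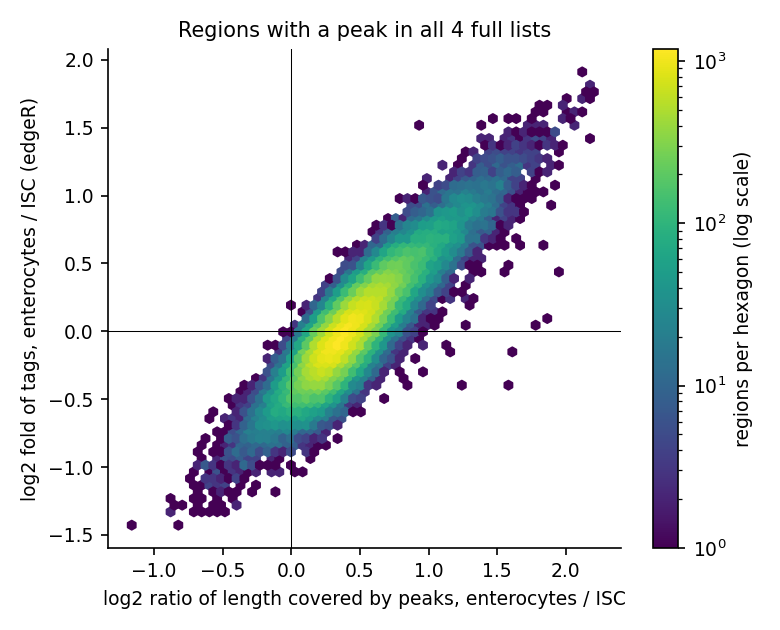
Log2 fold of tags (y axis, edgeR) against the log2 ratio of the length covered by peaks (x axis), enterocytes over ISC, at 94017 autosomal regions with a peak in all 4 full lists; colour gives regions per hexagon on a log scale. Regions lie along a rising band (Pearson r = 0.874), and the median length ratio is 0.41 on the log2 scale.

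The regions with the smallest p were long in enterocytes and short in ISC. On chromosome 18, 50337911 to 50340769, enterocyte peaks covered 2859 and 2566 bp with 198 and 229 tags, and ISC peaks 556 and 690 bp with 38 and 46 tags (log2 fold 1.91 ± 0.25 SE, edgeR adjusted p = 0.749). On chromosome 5, 68028683 to 68031574, the tags were 243 and 270 against 53 and 61, over 2892 and 2720 against 729 and 672 bp. On chromosome 15, 98309867 to 98312723, they were 169 and 167 against 34 and 36. These groups did not overlap in tags or in length. In tags per kb of covered length, the log2 differences of these 3 regions were -0.15, -0.20 and -0.30 (limma, each with an adjusted p above 0.39). This measure was scaled to library totals without TMM, and its median over all regions was -0.34. The 3 regions thus lay below 0 but above the median region. Both enterocyte libraries covered at least 2 times the length of both ISC libraries at 1031 shared regions, and the reverse was found at 0.

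In the other direction, the region on chromosome 10 from 116398760 to 116401422 had 132 and 221 ISC tags against 94 and 81 enterocyte tags, over 1587 and 2611 against 1043 and 833 bp (log2 fold -1.43 ± 0.24 SE, edgeR adjusted p = 0.749). On chromosome 6, 97458398 to 97460114 held 122 and 111 tags against 62 and 64. The named regions of this test were chosen after their values were seen, as none passed the threshold.

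Among the 28876 shared regions whose covered lengths lay within 1.5 times of each other, 3 passed an adjusted p of 0.05. The region on chromosome 4 from 62159343 to 62161237 held 233 and 231 tags in enterocytes and 104 and 128 in ISC (log2 fold 0.74 ± 0.15 SE, edgeR adjusted p = 0.0183). On chromosome 9, 20227198 to 20228457 held fewer tags in enterocytes, 95 and 80 against 120 and 142 in ISC (-0.84 ± 0.17 SE, edgeR adjusted p = 0.0149). The region on chromosome 13 from 120276491 to 120280289 held 1507 and 1929 ISC tags against 1154 and 1149 in enterocytes, far more than the others (-0.83 ± 0.14 SE, edgeR adjusted p = 0.000179). Over all 94017 regions their edgeR adjusted p-values were 0.947, 0.771 and 0.749, so the 3 calls depend on the choice of regions. The estimate of spread, and the degrees of freedom it adds to the test, are shared across the regions tested. Over all regions the SE of the 3 was 0.21, 0.23 and 0.17. The SE does not account for the change: the chromosome 13 region had a log2 fold of -1.01 over all regions, about as many SE from 0. Its unadjusted edgeR p was 6.2e-09 with matched lengths and 0.00027 over all regions. The degrees of freedom of the test with matched lengths were not recorded.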

How the data were processed

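The authors' peak lists, 1 per library, were used in mm9 coordinates. The submitters' processing notes name Bowtie 1.1.2, SAMtools 1.2 and bcl2fastq 1.8.4. Per the file headers, MACS 1.4.2 called peaks in each library alone, without a control, at a p cutoff of 1e-05. Tags per peak are whole-number counts as the authors deposited them. The score and the fold (a ratio to local background) are the authors' values per the file headers and served to rank or describe peaks within a list. Peak lengths and summits were taken as deposited.

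The autosomal lists were cut to 84990 peaks, the length of the shortest of the 8 lists. Regions named were the 12 strongest group-specific per direction, the 6 strongest with no full-list peak of the other group within 1 kb, 5 per direction from the tag test where under 0.05 adjusted, the 2 longest runs and the top 3 windows of 1 Mb. Tags of shared regions were tested with edgeR 4.0.16 (TMM on library totals, filterByExpr, which removed 0 regions), in R 4.3.3. DESeq2 1.42.0 and limma 3.58.1 served as alternatives. The edgeR test was also run on simulated counts, with the same spread for every region and no effect of peak length. That run cannot show how the test behaves where folds follow covered length, as they did here. SE is the log2 fold divided by the root of the F statistic. The p-values rest on the spread between 2 libraries a group, moderated by the spread over all regions tested. In the edgeR test of all shared regions the total degrees of freedom had a median of 8.73. Whether a replicate pooled animals is not given in the sources used here. Members, lists and rules were chosen with earlier results of these data known. Gene lists and sequences were not used here, since the gene table at hand is of another build.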

Additional observations from a re-analysis of the deposited data

Results flagged for a closer look

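Peaks on chromosome X lay outside the autosomal lists. With lists of equal length over all chromosomes, 18 enterocyte-only and 4 ISC-only regions were on X, of 74 and 41 called in both libraries of each group. Both counts were above the 3 that a count of 0 allows, a floor that takes no account of the autosomal shares. As shares these were 24.3% and 9.76%, where the autosomal shares were 11.6% and 10.6%, and the difference in share was not tested. The ISC share thus lay near the autosomal one. Few peaks lay on X, 227 to 693 in the full adult lists of 164157 to 282490 peaks. On Y, 3 of the 10 regions called in both ISC libraries were ISC-only, and 0 of the 6 called in both enterocyte libraries were enterocyte-only. Both groups were males.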

How the results depend on the processing

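Cutting before the autosome filter, all chromosomes, merging within 500 bp and merging all 8 lists kept every count of regions within 1.5 times. With lists cut to 50% of their length, 3691 enterocyte-only and 2910 ISC-only regions were found, 36 and 41 of them without a full-list peak of the other group, and the E14.5 gaps were -3.15 and -3.22 points. Ranking by fold enrichment gave 1169 and 2310 without a full-list peak and an ISC gap of -13.5 points. Summit intervals, 201 bp wide, gave 2301 and 2186 without one, 9237 full-list enterocyte-only regions and an ISC gap of -5.96 points. Requiring 50% coverage gave 9938 equal-list and 14573 full-list enterocyte-only regions and an enterocyte gap of -5.25 points. Leaving out 1 library loosens the rule by construction: equal-list counts ran from 12192 to 20635 (enterocyte-only) and 10037 to 24150 (ISC-only), those without a full-list peak from 1156 to 6036 and 1504 to 5779, full-list counts from 11815 to 34330 and 28569 to 72318, and the E14.5 gaps from -11.7 to -4.12 and -13.0 to -4.76 points. Of the 36 named entries, 17 met the rule when ranked by fold and 27 with summit intervals.

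In the shared regions, DESeq2 called 0, as did edgeR with no filter, library totals alone (added after seeing the data; median log2 fold 0.06), equal lists and each library left out. Matched lengths gave 1 region higher in enterocytes and 2 in ISC. Limma on tag density, scaled to library totals without TMM and with a median shift of -0.34, gave 0 and 7. The 5 leading enterocyte folds changed sign, to -0.15, -0.20, -0.30, -0.20 and -0.36, of which only the last lay below the median shift. Replicates share only a number: with the replicate block 0 regions passed (smallest adjusted p 0.707), and same-numbered libraries deviated with a correlation of 0.0446. The causes were not tested.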
